A study of Mus musculus with 2 samples.

Results

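The 9 genes described here encode secreted inhibitors of Wnt signalling and their cell-surface partners: Sfrp1, Sfrp2, Wif1, Dkk2, Dkk3, Dkk4, Sostdc1, Kremen1 and Kremen2. They were chosen by symbol from the 56694 genes of the deposited count matrices, and each symbol matched 1 row. Their transcripts were followed through single-cell RNA sequencing of mouse back skin at postnatal day 2, with 1 library of control mice and 1 library of Gli2 EKO mice. The control mice carried floxed Gli2 without Cre (the labels call their genotype WT). The Gli2 EKO mice carried 2 floxed alleles and the K14Cre transgene, which removes Gli2 from keratinocytes of the epidermis and of the structures that grow from it, whereas the dermal cells of these mice keep the gene. The skin was digested with collagenase from the dermal side, the epidermal sheet with its follicles was dissociated with trypsin, and the dermal cells in both libraries are those that stayed attached to it. How many mice were pooled for each library is not given in the sources used here.

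Wnt proteins signal through Frizzled receptors together with the co-receptors Lrp5 and Lrp6, and in the skin they drive the induction of hair follicles and later the differentiation of the hair shaft. Secreted frizzled-related proteins (Sfrp1, Sfrp2) and Wnt inhibitory factor (Wif1) bind Wnt proteins outside the cell. Dickkopf proteins such as Dkk2 and Dkk4 bind Lrp5 and Lrp6 instead, and Kremen1 and Kremen2 are the receptors that take Dickkopf and Lrp6 together into the cell. Dkk3 is a divergent family member with no settled action on Lrp6. Sostdc1, also called ectodin or wise, binds both bone morphogenetic proteins (BMPs) and the receptors Lrp4, Lrp5 and Lrp6. In skin, Hedgehog signalling from the follicle epithelium acts on the same follicle cells and on the dermal papilla, the group of specialised fibroblasts at the follicle base.

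The control matrix held 71021773 unique molecular identifiers (UMIs, each standing for 1 captured RNA molecule) in 6326 barcodes, and the Gli2 EKO matrix 48866478 UMIs in 4296 barcodes; no barcode sequence occurred in both. After filtering, 4456 control and 3093 Gli2 EKO cells were kept, with medians of 11827.5 and 11936 UMIs per cell. Cells were clustered with the 9 genes and the other Wnt genes left out of the genes that made the clusters, and clusters were called by a cell type ("-like") from marker genes. The marker check was strong for papilla-like cells, where 11 of 11 markers had their highest level of any class, and for inner root sheath (IRS)-like cells with 7 of 7. It was weaker for outer root sheath (ORS)-like cells with 2 of 11 and for matrix/progenitor-like cells with 3 of 8, and the latter cluster was led by Dcn, a fibroblast gene, ahead of Shh, Cldn10, Msx1 and Myb. Levels are given as CPM: for each class and library, the UMIs of a gene divided by all UMIs of the class and expressed per 1000000. Where a pair of values is given, the control value comes first. Ratios are log2 of Gli2 EKO over control CPM, followed in parentheses by their exact 95% interval, which counts sampling of UMIs alone. Replicate libraries were not made, so a ratio compares these libraries and carries no replicate check. A ratio was counted as past the fold at 1.5-fold or more with at least 50 UMIs over both libraries, in classes with at least 20 cells in each. In keratinocytes Gli2 itself was at 83.0 CPM (control) and 84.6 CPM (Gli2 EKO); the assay counts the 3' end and the floxed exons are not given in the sources used here, so this level does not check the labels.

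The 9 genes divided between skin compartments. Sfrp1 was a follicle gene, with 86.9% of its control UMIs and 89.8% of its Gli2 EKO UMIs in follicle cells. Sfrp2 and Dkk2 were dermal: dermal cells held 95.5% and 91.8% of the Sfrp2 UMIs and 94.4% and 97.0% of the Dkk2 UMIs in control and Gli2 EKO. Wif1 was mainly dermal, at 74.5% in control and 86.5% in Gli2 EKO, with 23.2% and 12.6% in the follicle. Sostdc1 had 54.5% and 55.9% of its UMIs in the follicle, and its dermal share was 12.97% in control against 4.17% in Gli2 EKO. Dkk3 was spread over follicle (47.5% and 44.3%), dermis (34.7% and 35.0%) and other cell types. The Kremens differed from each other in the dermis, which held 22.4% and 29.3% of the Kremen1 UMIs but 0.64% and 0.43% of the Kremen2 UMIs. For Kremen2 the follicle share was 62.8% in control and 24.5% in Gli2 EKO, while the share in interfollicular epidermis (IFE) was 24.3% and 50.3%. These shares also follow the number of cells, since IFE cells were 470 of the control and 698 of the Gli2 EKO cells and follicle cells 2371 and 1193. Levels within classes, given next, are not set by those numbers.

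**Figure D1:**
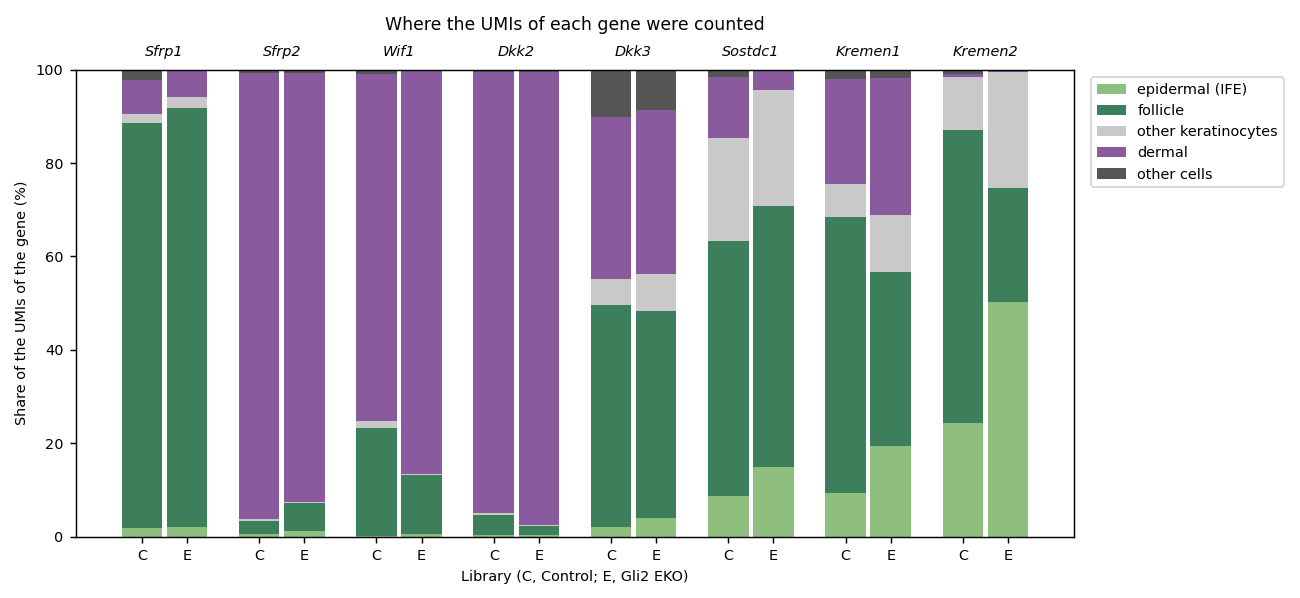
Stacked bars give the percentage of the UMIs of each gene (Dkk4, with 12 UMIs, left out) found in IFE, follicle, other keratinocytes, dermal cells and other cells, with 1 bar for control and 1 for Gli2 EKO. Sfrp2 and Dkk2 lie almost wholly in dermal cells, Sfrp1 in the follicle, and the Kremen2 bar shifts from 62.8% to 24.5% in the follicle.

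Sfrp1 (ENSMUSG00000031548) lies on the plus strand of chromosome 8 at 23901263 to 23939648 in GRCm39, and no other annotated gene overlaps it. It was highest in ORS-like cells, the outer layer of the follicle, with 603 and 667 CPM in control and Gli2 EKO (log2 ratio 0.15, 0.09 to 0.20). Of the 3 ORS-like clusters, the one led by Adamts19 had 963 and 1058 CPM, the one led by Spon1 639 and 586 CPM and the dividing one led by H2ac8 395 and 502 CPM. The ORS level thus differed little between the libraries. Next in the control library came dermal papilla-like cells at 311 CPM and companion/Krt79-like cells at 272 CPM, whose intervals overlapped. The companion/Krt79-like class is named for the companion layer between both root sheaths and for Krt79, and 3 of its 6 markers were highest there. Both classes were lower in Gli2 EKO, at 199.6 CPM in the papilla (log2 ratio -0.64, -0.88 to -0.40) and 174 CPM in companion/Krt79-like cells (-0.64, -0.89 to -0.40). In the papilla Sfrp1 was found in 115 of 195 control cells and 75 of 157 Gli2 EKO cells. In IFE basal-like cells the level was lower, at 28.4 and 11.9 CPM in control and Gli2 EKO (-1.26, -1.73 to -0.80). Most of that gap lay in the cluster led by Ifi202b, whose leading genes include the stress-response genes Atf3, Fosl1 and Gadd45b, with 47.2 and 7.40 CPM, whereas the larger Sox6-led cluster had 17.5 and 13.8 CPM. Upper follicle-like cells went the other way, with 27.0 and 42.6 CPM (0.66, 0.23 to 1.09), although the ratio was 0.051 with no doublet removal.

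Low Sfrp1 counts in the inner follicle rested on single cells. IRS-like cells held 14 control and 21 Gli2 EKO UMIs, 17 of the latter in 1 cell, and matrix/progenitor-like cells 14 and 19 UMIs, 15 of the latter in 1 cell. Hair shaft/lineage-like cells held 1 and 17 UMIs, with 11 in 1 cell. Outside the epithelium and dermis, immune-like cells had 13 UMIs in control, 9 of them in 1 cell, and 0 in Gli2 EKO, while the cluster with endothelial markers had 251 CPM in 50 control cells and 59.7 CPM in 10 Gli2 EKO cells.

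Sfrp2 (ENSMUSG00000027996) lies on the plus strand of chromosome 3 at 83673481 to 83681623. The antisense non-coding RNA Gm26771 overlaps its 3' end and had 192 UMIs in all deposited cells. In fibroblast-like cells Sfrp2 was at 189 and 169.9 CPM in control and Gli2 EKO (log2 ratio -0.15, -0.29 to -0.02). Within that class it marked the Clec3b-led cluster with 303 and 297 CPM and the Adarb2-led cluster with 248 and 194 CPM, while the dividing Top2a-led cluster had 22.3 and 55.3 CPM. The Coch-led cluster had 104 and 22.8 CPM, but 30 of its 66 control UMIs came from 1 cell. Among single classes Sfrp2 was past the fold in papilla-like cells alone, with 112 and 44.2 CPM in control and Gli2 EKO (-1.34, -1.84 to -0.87). Keratinocytes held only 52 control and 64 Gli2 EKO UMIs of Sfrp2. Among these were 5 and 28 UMIs in matrix/progenitor-like cells, from 5 of 357 control cells and 14 of 143 Gli2 EKO cells, and 6 and 16 UMIs in IRS-like cells, both short of the 50 UMIs needed for a call.

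Wif1 (ENSMUSG00000020218) lies on the plus strand of chromosome 10 at 120869865 to 120936555 with no overlapping gene. It was highest in dermal papilla-like cells, where it was found in 158 of 195 control cells and 129 of 157 Gli2 EKO cells. The papilla level was 1629 and 994 CPM in control and Gli2 EKO (log2 ratio -0.71, -0.82 to -0.61). The other dermal classes with at least 50 UMIs had the opposite direction. Fibroblast-like cells had 148 and 365 CPM in control and Gli2 EKO (1.31, 1.18 to 1.43). In these cells the share with a UMI, after each cell was thinned to 2000 UMIs so that depth could not set it, was 16.1% in control and 36.2% in Gli2 EKO. In immune-like cells thinned in the same way the share was 0 of 93 control cells and 0 of 36 Gli2 EKO cells. With 3 counts taken as the limit for a count of 0, in place of the exact interval, this allows up to 3.23% and 8.33%. The higher level was shared by the fibroblast-like clusters led by Adarb2 (88.5 and 343 CPM), Clec3b (76.1 and 248 CPM) and Top2a (313 and 589 CPM), and the Coch-led cluster had 88.3 and 112 CPM with an interval that spans 0 (0.34, -0.27 to 0.93). Dermal cells left unnamed had 259.6 and 723 CPM (1.48, 1.33 to 1.62). They consisted mainly of an Ednrb-led cluster with Tnmd, Acan and Acta2 among its leading genes, at 238 and 435 CPM, and a Dkk1-led cluster with Sox18, Tcf7 and Wnt4 among its leading genes, at 375 and 1348 CPM. Both clusters scored highest on the fibroblast list, at 3.118 (Ednrb-led) and 2.515 (Dkk1-led). They were left unnamed because their leading genes held more markers of another class. The share of Dkk1-led cells with a Wif1 UMI after thinning was 38.3% in control and 80.4% in Gli2 EKO.

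In the epithelium Wif1 was a gene of the matrix, the dividing cells of the follicle bulb, at 156 and 150.4 CPM (-0.06, -0.23 to 0.12), found in 85 of 357 control cells and 45 of 143 Gli2 EKO cells. Papilla markers summed to 15.4 and 6.03 CPM in these cells, against 6785 and 5169 CPM in papilla-like cells. Hair shaft/lineage-like cells had 72.8 and 111.5 CPM (0.62, 0.19 to 1.03), and IRS-like cells 29.9 and 14.0 CPM (-1.10, -1.82 to -0.44), 29 of the 110 control UMIs coming from 1 cell. The ORS-like level was 3.08 and 2.93 CPM. A lower level in the mixed, dividing IFE basal cluster led by H1f5, with 10.7 and 1.98 CPM, rested on 1 control cell that held 39 of 52 UMIs, and without the highest cell of each library the log2 ratio was -1.31. Likewise 38 of 46 control UMIs in melanocyte-like cells were in 1 cell.

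**Figure D2:**
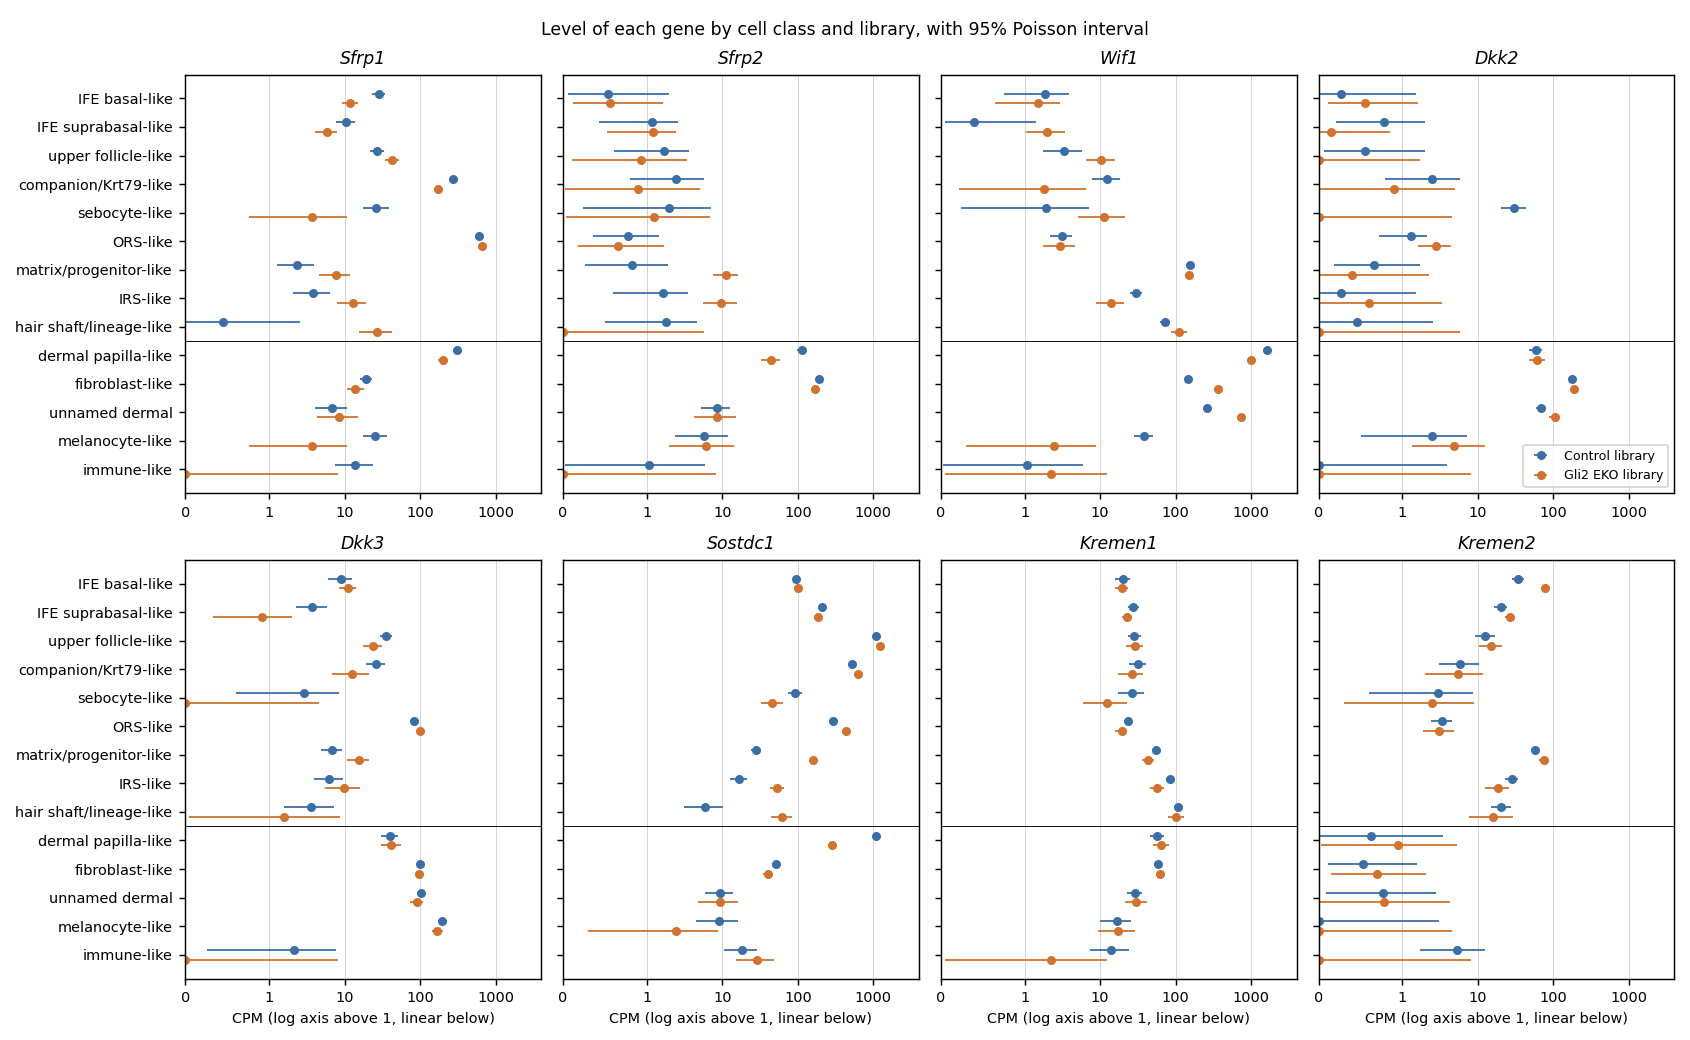
Each panel gives the CPM of 1 gene (Dkk4 left out) for 14 cell classes, on an axis that is logarithmic above 1 CPM and linear below, with control and Gli2 EKO as separate points and exact 95% Poisson intervals as bars. Sfrp1 peaks in ORS-like cells at 603 and 667 CPM, Wif1 in papilla-like cells at 1629 and 994 CPM, and the Sostdc1 points are farthest apart in matrix/progenitor-like, hair shaft/lineage-like and papilla-like cells.

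Dkk2 (ENSMUSG00000028031, chromosome 3, 131790336 to 131886065, plus strand), an Lrp5 and Lrp6 ligand, showed a narrow dermal pattern. The Coch-led fibroblast-like cluster had 632 and 682 CPM in control and Gli2 EKO (log2 ratio 0.11, -0.12 to 0.34), and the Adarb2-led cluster 319 and 315 CPM. The Clec3b-led cluster, which was high in Sfrp2, had 29.5 and 22.6 CPM. Dkk2 and Sfrp2 were therefore both fibroblast genes but had their highest levels in different clusters. Over all fibroblast-like cells Dkk2 was at 176 and 186 CPM (0.08, -0.06 to 0.21) and in the papilla at 58.3 and 61.2 CPM (0.07, -0.41 to 0.54), and both intervals spanned 0. In the unnamed dermal cells it was at 68.3 and 104 CPM (0.61, 0.27 to 0.94), made up of 56.1 and 115 CPM in the Ednrb-led cluster and of 124 and 41.2 CPM in the Dkk1-led cluster. Those clusters went in opposite directions, with log2 ratios of 1.04 and -1.59. Keratinocytes held 68 control and 25 Gli2 EKO UMIs, 30 of the control UMIs being in 1 sebocyte-like cell.

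Dkk3 (ENSMUSG00000030772, chromosome 7, 111712904 to 111758760, minus strand) was broad. Melanocyte-like cells had the highest level, 197 and 169 CPM in control and Gli2 EKO, found in 84 of 105 and 57 of 67 cells. Unnamed dermal cells followed with 102 and 90.03 CPM and fibroblast-like cells with 99.0 and 95.7 CPM. ORS-like cells had 83.9 and 98.8 CPM, with the Adamts19-led cluster at 173 and 165 CPM. Papilla-like cells were lower, at 39.7 and 41.4 CPM. In these main sites the log2 ratios lay between -0.23 and 0.24. Ratios past the fold occurred in 3 other classes, in matrix/progenitor-like cells (6.77 and 15.3 CPM, 1.17, 0.50 to 1.85), in unnamed keratinocytes (43.3 and 70.2 CPM, 0.70, 0.21 to 1.17) and in companion/Krt79-like cells (25.9 and 12.6 CPM, -1.04, -2.01 to -0.17).

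Dkk4 (ENSMUSG00000031535, chromosome 8, 23114059 to 23117563, plus strand), a Dickkopf of early hair placodes, was found in very few cells at this age. Its 12 UMIs lay in 3 control matrix/progenitor-like cells, 7 of them in 1 cell. The Gli2 EKO library had 0 UMIs, where 3 counts were taken as the limit for a count of 0. The gene Polb overlaps its 3' end on the opposite strand, and 3' tag counts keep the strand.

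Sostdc1 (ENSMUSG00000036169) lies on the plus strand of chromosome 12 at 36364137 to 36368451, inside the same-strand non-coding gene Gm40392, which had 15 UMIs in all deposited cells. In keratinocytes it was highest in upper follicle-like cells, at 1095 and 1237 CPM in control and Gli2 EKO (log2 ratio 0.18, 0.10 to 0.25), and was found in 295 of 328 and 166 of 170 cells. The mixed IFE basal cluster followed with 709 and 518 CPM, companion/Krt79-like cells with 523 and 617 CPM and ORS-like cells with 293 and 434 CPM. The ORS ratio, 0.57 (0.49 to 0.64), lay just short of 1.5-fold, and each of the 3 ORS-like clusters was higher in Gli2 EKO, the Spon1-led one at 130 and 227 CPM, the H2ac8-led one at 305 and 427 CPM and the Adamts19-led one at 586 and 767 CPM. IFE suprabasal-like cells had 207 and 184 CPM and IFE basal-like cells 95.8 and 101 CPM, with ratios of -0.17 and 0.07.

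Sostdc1 differed in opposite directions in the lower follicle and in the papilla. Matrix/progenitor-like cells had 28.1 and 159 CPM in control and Gli2 EKO (2.50, 2.24 to 2.77). The transcript was found in 47 of 357 control cells and 48 of 143 Gli2 EKO matrix cells, and after thinning to 2000 UMIs in 3.37% and 14.7%. The single highest cell gave 30 of 170 and 43 of 395 UMIs. IRS-like cells had 16.6 and 53.4 CPM (1.69, 1.20 to 2.18), found in 24 of 345 and 17 of 140 cells. In hair shaft/lineage-like cells 13 control UMIs came from 12 cells and 39 Gli2 EKO UMIs from 5 cells, 19 of them in 1 cell (3.37, 2.44 to 4.40). Markers of other classes differed alongside these values. In matrix/progenitor-like cells IFE basal markers summed to 1258 and 3194 CPM, lower ORS markers to 572 and 1332 CPM and matrix markers to 1007 and 720 CPM, and in IRS-like cells IFE basal markers summed to 721 and 1461 CPM and lower ORS markers to 1277 and 2240 CPM. Their part in the Sostdc1 ratios was not tested.

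In dermal papilla-like cells Sostdc1 was at 1095 and 286 CPM in control and Gli2 EKO (-1.94, -2.12 to -1.76), found in 99 of 195 and 49 of 157 cells. The papilla-like class had a Dcc-led cluster, with Rspo2 and Fgf7 among its leading genes, and a Prokr2-led cluster with Prdm1 and Bmp7. The Dcc-led cluster carried almost all of the transcript, at 1625 and 542 CPM (-1.58, -1.79 to -1.39), while the Prokr2-led cluster had 51.5 and 105 CPM (1.02, 0.36 to 1.72). The Dcc-led cluster held 119 of 195 control cells and 65 of 157 Gli2 EKO papilla-like cells. With the 2 clusters weighted by their control share of UMIs, the papilla ratio was -1.47. Fibroblast-like cells had 51.1 and 40.3 CPM. The cluster with endothelial markers, with 10 Gli2 EKO cells too small to be counted by the fold, had 364 and 9.96 CPM, the latter from 1 UMI. In immune-like cells the level was 18.2 and 28.6 CPM, all 13 Gli2 EKO UMIs being in 1 cell.

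**Figure D3:**
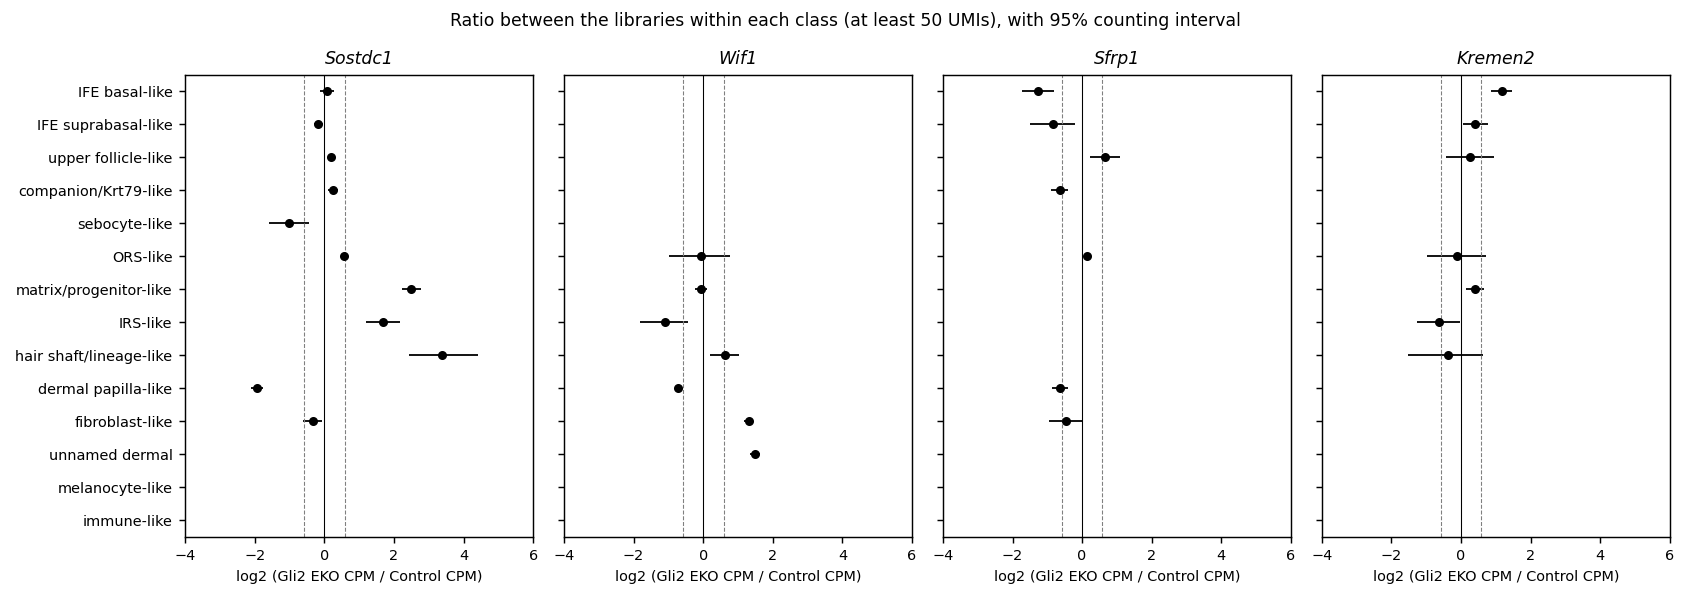
Points give the log2 ratio of CPM, Gli2 EKO over control, of Sostdc1, Wif1, Sfrp1 and Kremen2 in the same classes where the gene has 50 or more UMIs, with exact 95% intervals as bars and dashed lines at 1.5-fold. Sostdc1 reaches 3.37 in hair shaft/lineage-like cells and -1.94 in papilla-like cells, and Wif1 1.48 in unnamed dermal cells.

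Kremen1 (ENSMUSG00000020393, chromosome 11, 5141548 to 5211727, minus strand) was highest in the differentiating inner follicle. Hair shaft/lineage-like cells had 109 and 102 CPM in control and Gli2 EKO (log2 ratio -0.09, -0.51 to 0.31). IRS-like cells had 84.9 and 56.5 CPM (-0.59, -0.94 to -0.25), and matrix/progenitor-like cells 54.5 and 43.4 CPM (-0.33, -0.66 to -0.01). Levels in fibroblast-like and papilla-like cells were alike in size and did not differ beyond counting error, with 58.3 and 62.4 CPM in fibroblast-like cells and 56.4 and 64.0 CPM in papilla-like cells. Unnamed dermal cells had a lower level, 28.8 CPM in control, with a log2 ratio of 0.07. The outer layers were lower, with 23.3 and 19.2 CPM in ORS-like and 20.1 and 19.3 CPM in IFE basal-like cells. The annotated antisense RNA Gm73855 overlaps the 3' end of the gene.

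Kremen2 (ENSMUSG00000040680, chromosome 17, 23960171 to 23965516, minus strand) was found in keratinocytes, with 6 control and 5 Gli2 EKO UMIs in all dermal cells together. In control cells its highest level was in matrix/progenitor-like cells, 57.0 CPM, against 75.2 CPM in Gli2 EKO (0.40, 0.13 to 0.66). IFE basal-like cells had 34.1 and 76.5 CPM in control and Gli2 EKO (1.17, 0.88 to 1.46). The transcript was found in 86 of 253 control cells and 210 of 393 Gli2 EKO basal-like cells, and in 5.53% and 15.8% after thinning, where immune-like cells gave 2.15% and 0%. The Sox6-led basal cluster had 35.3 and 88.9 CPM (1.33, 0.98 to 1.70), and the Ifi202b-led cluster 31.9 and 47.5 CPM (0.57, 0.02 to 1.14). The mixed, dividing IFE basal cluster gave 20.5 and 50.1 CPM (1.29, 0.95 to 1.63), and suprabasal-like cells 20.02 and 26.7 CPM (0.41, 0.05 to 0.78). The value was thus higher in Gli2 EKO in each of these 3 groups of IFE cells. In IRS-like cells the level was 28.0 and 18.2 CPM (-0.62, -1.26 to -0.02), a direction that turned with stricter cell limits (1.00) and at clustering resolution 1.0 (0.20), and in ORS-like cells it was 3.34 and 3.09 CPM. IFE basal markers summed to 33214 and 35017 CPM in the basal-like class, and Gli2 was at 54.7 and 111 CPM there (1.02, 0.78 to 1.25). The antisense RNA 9530082P21Rik overlaps part of Kremen2 and had 283 UMIs in all deposited cells.

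In the dermal papilla 7 of the 9 genes had at least 50 UMIs, and 4 of these, Sfrp1, Sfrp2, Wif1 and Sostdc1, were lower in Gli2 EKO and 0 higher, where 6.01% of all genes with that many UMIs were lower and 5.48% higher. In IFE basal-like cells 1 of 5 was higher (Kremen2) and 1 lower (Sfrp1), against 4.05% of all genes higher and 4.43% lower. In the mixed IFE basal cluster 1 of 6 was higher (Kremen2) and 1 lower (Wif1, the value resting on 1 cell), against 2.55% and 7.65%, and in suprabasal-like cells 0 of 4 were higher and 1 lower (Sfrp1), against 2.92% and 7.13%. In matrix/progenitor-like cells 2 of 5, Dkk3 and Sostdc1, were higher and 0 lower, against 4.97% and 7.18%. In IRS-like cells 1 of 4 was higher (Sostdc1) and 3 lower (Wif1, Kremen1 and Kremen2, the last with a direction that turned in 2 alternatives), against 5.19% and 13.2%. The Kremen1 ratio there, -0.59, was just past the fold and stayed past it in 4 of 7 alternatives. In hair shaft/lineage-like cells 2 of 4, Wif1 and Sostdc1, were higher and 0 lower, against 6.48% and 8.76%. ORS-like cells had 0 of 6 past the fold either way, against 2.36% of all genes higher and 4.81% lower. In upper follicle-like cells 1 of 5 was higher (Sfrp1) and 0 lower, against 3.86% and 9.97%, and in companion/Krt79-like cells 0 of 4 were higher and 2 lower (Sfrp1 and Dkk3), against 4.61% and 8.83%. Unnamed keratinocytes had 1 of 4 higher (Dkk3) and 0 lower, against 6.43% and 7.96%, and sebocyte-like cells had 0 of 1 higher and 1 lower (Sostdc1, 91.4 and 45.6 CPM), against 4.83% and 21.9%. In melanocyte-like cells the 1 gene with enough UMIs, Dkk3, was not past the fold, against 6.44% higher and 9.56% lower. In fibroblast-like cells 1 of 7 was higher (Wif1) and 0 lower, against 2.9% and 4.84%, and in unnamed dermal cells 2 of 4 were higher (Wif1 and Dkk2, the latter at -0.15 with no doublet removal) and 0 lower, against 5.28% and 6.81%. With so few members per class these counts describe the genes and do not set them apart from other genes.

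The papilla difference followed the Dcc-led cluster. In that cluster Wif1 was at 2135 and 1256 CPM (-0.76, -0.90 to -0.63), Sfrp1 at 429 and 293 CPM (-0.55, -0.84 to -0.27) and Sfrp2 at 153 and 52.2 CPM (-1.56, -2.25 to -0.92). In the Prokr2-led cluster Wif1 was at 637 and 808 CPM (0.34, 0.14 to 0.55), Sfrp1 at 79.1 and 134 CPM (0.76, 0.21 to 1.32) and Sfrp2 at 31.3 and 38.6 CPM (0.30, -0.65 to 1.29). All 4 were therefore lower in Gli2 EKO in the first cluster and none was lower in the second, and whether the clusters differed was not tested. Weighting the clusters by their control share of UMIs gave papilla ratios of -0.38 for Sfrp1, -1.24 for Sfrp2 and -0.56 for Wif1. With this weighting Sfrp1 and Wif1 were no longer past 1.5-fold in the papilla. Summed papilla markers were 7415 and 5976 CPM in the Dcc-led and 5546 and 4597 CPM in the Prokr2-led cluster. Markers of other cells also differed there, with melanocyte markers at 44.9 and 490 CPM and Schwann cell markers at 106 and 9.07 CPM in the Dcc-led cluster, and their part in the ratios was not tested. K14Cre acts in keratinocytes, and papilla cells are not its target. How the papilla ratios arose was not tested.

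**Figure D4:**
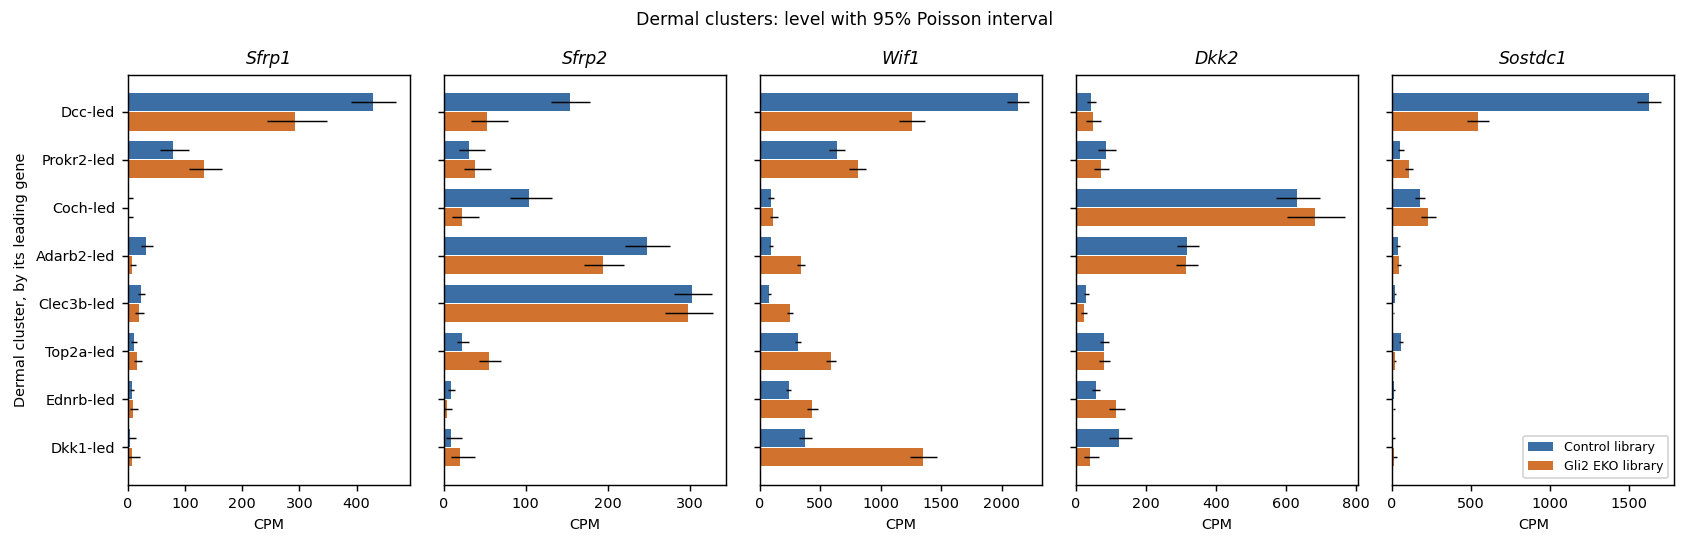
Bars give the CPM of Sfrp1, Sfrp2, Wif1, Dkk2 and Sostdc1 in each larger dermal cluster, named by its leading gene, in control and Gli2 EKO, with exact 95% Poisson intervals. Sostdc1 and Wif1 are lower in Gli2 EKO in the Dcc-led cluster, at 542 and 1256 CPM, and Wif1 is higher in the Dkk1-led cluster, at 1348 CPM.

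Summed over all keratinocytes, the genes partly gave other ratios than within classes, and IFE cells made up more of the Gli2 EKO library. Of the 8 genes with at least 50 UMIs, 2 were past the fold higher (Sfrp2 and Kremen2) and 2 lower (Wif1 and Dkk2), against 4.27% of all genes higher and 9.92% lower. Wif1 was at 29.8 and 16.6 CPM (-0.84, -0.99 to -0.70), but with the keratinocyte clusters weighted by their control shares the ratio was -0.046. Sfrp1 went from -0.33 to 0.061 in the same way and Kremen1 from -0.48 to -0.27. Kremen2, at 20.1 and 34.8 CPM (0.79, 0.67 to 0.92), was at 0.52, no longer past 1.5-fold, and Sfrp2, with 52 and 64 UMIs, at 1.29. The Dkk2 call rested on 1 sebocyte-like control cell, since the ratio was -0.98 with it and -0.32 without the highest cell of each library. Over all dermal cells 0 of 7 were higher and 1 lower (Sostdc1, at 202 and 71.3 CPM, -1.50, -1.65 to -1.36), against 3.03% and 4.3% of all genes. Wif1 over all dermal cells was at 401 and 519 CPM (0.37, 0.31 to 0.44), over opposite ratios in papilla-like and fibroblast-like cells.

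Several of the genes were found in the same cells. In papilla-like cells thinned to 5000 UMIs, Sfrp1 and Sostdc1 were found together in 34.4% of 183 control cells, where the product of their single shares was 24.2%, and in 18.9% of 132 Gli2 EKO cells, where it was 11.5%. Sfrp2 and Sostdc1 were together in 18.6% of control papilla-like cells against a product of 11.7%. In ORS-like cells Sfrp1 and Sostdc1 were together in 39.3% of control cells and 50.9% of Gli2 EKO cells, close to products of 35.1% and 46.4%. In matrix/progenitor-like cells Wif1 and Kremen2 were together in 10.0% of 329 control cells against a product of 3.96%, and in 10.8% of 139 Gli2 EKO cells against 4.97%. Kremen1 and Kremen2 were together in 9.73% of the control matrix cells against 5.21%. In control fibroblast-like cells Dkk2 was found with Sostdc1 more often than the product (9.56% against 5.49%), whereas Wif1 and Sostdc1 were found together less often (2.70% against 5.03%). Differences between the clusters of a class can enter these shares, and their part was not tested.

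Over 35 profiles, each 1 class in 1 library, the genes were ranked by the Pearson correlation of log2(CPM + 10) with each member but Dkk4, which had too few UMIs. Both libraries of a class share its cells' identity, so these values describe likeness of pattern only. Sfrp1 was nearest to Gstm7 (r = 0.88), Nkain3 and Ephb1, and Sfrp2 to Slc7a10 (0.96), Ptgfr and Lrfn5. Wif1 was nearest to Frem1 (0.89), a basement membrane protein gene, with Col26a1 and Fam189a1. Dkk2 was nearest to Twist2 (0.97), a transcription factor of dermal fibroblasts, with Vax2 and Tspan11, and Dkk3 to Aebp1 (0.87), Nav2 and Sorbs3. Sostdc1 was nearest to Fst (0.84), which encodes the activin and BMP antagonist follistatin, with Egr2 and Halr1. Kremen1 was nearest to Tiam2 (0.86), Grtp1 and Nxpe4, and Kremen2 to Hdgf (0.88), Klrg2 and Nudt5. With 1 CPM added in place of 10, the nearest gene stayed the same for Sostdc1 and Kremen1 and changed for the other 6.

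Other genes of the pathway were counted by the same rule. In papilla-like cells 1 of 8 other Wnt inhibitors with enough UMIs was lower, Notum, a Wnt deacylase, at 98.0 and 46.1 CPM (-1.09), against 6.01% of all genes lower and 5.48% higher, and the feedback targets Nkd2 (0.62) and Tcf7 (1.08) were higher with Ccnd1 (-0.63) lower, of 6. Hhip, a Hedgehog-binding papilla marker, was at 1130 and 652 CPM (-0.79), the only 1 of 4 Hedgehog targets past the fold there. In fibroblast-like cells, where Wif1 was higher, 3 of 7 Wnt feedback targets were higher and 0 lower, namely Axin2 at 34.1 and 52.9 CPM, Nkd1 at 96.9 and 183 CPM and Tcf7 at 53.2 and 123 CPM, with a list median of 0.54 against -0.01 over all genes, of which 2.9% were higher and 4.84% lower. Of 10 other inhibitors, Frzb and Apcdd1 were higher and Sost, Draxin and Igfbp4 lower. In unnamed dermal cells 4 of 6 feedback targets were higher and 0 lower (Nkd1, Nkd2, Tcf7 and Ccnd1), with a median of 0.87, and so were 4 of 8 other inhibitors (Frzb, Dkk1, Sost and Apcdd1), against 5.28% of all genes higher and 6.81% lower. The cluster led by Dkk1, with Tcf7 among its leading genes, held 47 of 204 control and 49 of 124 Gli2 EKO cells of this class. The part of this cluster mix in these values was not tested. Both dermal groups with more Wif1 also had more RNA of several feedback targets. Papilla-like cells, where Wif1 was lower, likewise had a feedback-target median above that of all genes, 0.498 against -0.008. Whether the feedback targets went with Wif1 was not tested.

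In IFE basal-like cells, where Kremen2 was higher, the Hedgehog targets Gli1, at 2.41 and 7.61 CPM, and Ptch1, at 36.8 and 144 CPM, were higher. The Wnt ligands Wnt6 (0.83), Wnt7a (1.38) and Wnt7b (0.93) were higher and Wnt5b (-0.85) lower, of 10, and of 5 feedback targets Lef1 was higher at 75.9 and 177 CPM, where 4.05% of all genes were higher and 4.43% lower. None of the 10 Wnt receptors was past the fold. In matrix/progenitor-like cells the Sostdc1 receptor Lrp4 was at 63.9 and 124 CPM (0.96), the 1 of 14 receptors past the fold, while of 8 ligands Wnt10a (1.04) and Wnt16 (1.81) were higher and Wnt5a (-0.89) lower, and of 7 feedback targets Sp5 (1.69) was higher. Of 7 other inhibitors in the matrix, Igfbp4 (0.77) and Trabd2b (0.82) were higher and Notum (-0.71) lower, where 4.97% of all genes were higher and 7.18% lower. In IRS-like cells, where Wif1 and both Kremens were lower, the Hedgehog targets Gli1 (-1.31) and Ptch1 (-1.29) were lower, as were 4 of 14 receptors (Fzd5, Fzd7, Lrp5 and Ror2), against the 13.2% of all genes that were lower in this class.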

How the data were processed

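Single-cell libraries of 1 control and 1 Gli2 EKO sample were analysed, and genotypes were taken from the labels. The authors processed 10x 3' reads with Cell Ranger 9.0.1 on GRCm39 and deposited filtered matrices of raw UMI counts. CPM, shares and log2 ratios were computed here. Cells with over 1000 and under 8000 genes and under 15% mitochondrial UMIs were kept (4844 and 3362), as in the study. The study's scDblFinder was not run, and the 8% of cells with the highest Scrublet score per library were removed (388 and 269), since the automatic threshold marked 260 and 5.

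Clustering used Seurat 5.3.0 in R 4.3.3 with 2000 variable genes, 20 components, the published Harmony algorithm rewritten here, and Louvain at resolution 0.5, over all cells and then over keratinocytes and dermal cells. Clusters were named from marker lists at a score of at least 1. This limit, the joined ORS and hair shaft/lineage classes and the share of 0.4 that set non-keratinocyte clusters apart were chosen after the data were seen. Python 3.11.15 with scanpy 1.11.5, numpy 2.4.6, scipy 1.17.1 and pandas 2.3.3 gave UMI sums, Poisson, Clopper-Pearson and conditional binomial intervals at 95%, which treat UMIs as independent. The ratio step was tested on simulated independent Poisson counts, the model that its intervals assume. UMIs concentrated in single cells were not simulated. Coordinates come from a later GENCODE release than the authors' annotation, matched by identifier.

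The members and gene lists were chosen with earlier results of these data known. Named genes are the 9 members, list genes past 1.5-fold with at least 50 UMIs (at most 4 per list), the 3 genes nearest to each member and class markers. Leading genes of clusters and overlapping genes were added after their values were seen. Tested alternatives were no doublet removal, no integration, resolutions 0.3 and 1.0, stricter cells, the mean over cells, other thinning and call limits and a marker score per cell. No test and no p-value was possible with 1 library per genotype. Values of some genes on the lists are not reported here.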

Additional observations from a re-analysis of the deposited data

Results flagged for a closer look

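With 1 library per genotype, the rule met here was that the log2 ratio of a gene, Gli2 EKO over control, passed 1.5-fold in opposite directions in different cell classes; whether the classes differ was not tested. For Sostdc1 the ratio was 2.50 in matrix/progenitor-like, 1.69 in IRS-like and 3.37 in hair shaft/lineage-like cells, against -1.94 in dermal papilla-like and -1.0 in sebocyte-like cells. For Wif1 it was 1.31 in fibroblast-like, 1.48 in unnamed dermal and 0.62 in hair shaft/lineage-like cells, against -0.71 in papilla-like, -1.10 in IRS-like and -2.43 in mixed IFE basal cells, the last resting on 1 control cell. For Sfrp1 it was 0.66 in upper follicle-like cells, against -1.26 in IFE basal-like, -0.85 in IFE suprabasal-like, -0.64 in companion/Krt79-like and -0.64 in papilla-like cells. One control cell gave 26 of the 97 upper follicle UMIs of Sfrp1. For Kremen2 it was 1.17 in IFE basal-like and 1.29 in mixed IFE basal cells, against -0.62 in IRS-like cells, where the direction turned in 2 of 7 alternatives (1.00 with stricter cells, 0.20 at resolution 1.0). For Dkk3 it was 1.17 in matrix/progenitor-like cells and 0.70 in unnamed keratinocytes, against -1.04 in companion/Krt79-like cells, with 41 and 38 UMIs behind the first value.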

How the results depend on the processing

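No paired analysis was possible because there was 1 library per genotype. Of 30 ratios past 1.5-fold, 27 kept their sign and 15 stayed past 1.5-fold under all alternatives run. Among the ratios past 1.5-fold, Sostdc1 ranged over 2.27 to 2.75 in matrix/progenitor-like cells and -2.06 to -1.47 in the papilla. In IRS-like cells Sostdc1 ranged over 0.74 to 1.82, and in hair shaft/lineage-like cells over 1.18 to 3.46. Wif1 ranged over 1.25 to 1.5 in fibroblast-like cells, 0.87 to 1.57 in unnamed dermal cells and -2.82 to -1.31 in mixed IFE basal cells. Sfrp2 in the papilla ranged over -1.39 to -1.24 and Kremen2 in IFE basal-like cells over 1.11 to 1.31. Sfrp1 in upper follicle-like cells ranged over 0.05 to 0.98. Signs turned for Dkk2 in unnamed dermal cells (-0.15 with no doublet removal) and over all keratinocytes (0.33 as the mean of cells), and for Kremen2 in IRS-like cells (1.00 with stricter cells, 0.20 at resolution 1.0); the cause was not tested. Weighting by control cluster shares gave, over all keratinocytes, 0.061 for Sfrp1, -0.046 for Wif1, 0.18 for Dkk3, -0.27 for Kremen1 and 0.52 for Kremen2. Means of cells gave -0.11 for Sfrp1 and -0.67 for Wif1 over keratinocytes, and 0.11 for Dkk2, -0.38 for Sfrp2 and 0.28 for Wif1 over dermal cells. Over dermal cells Sfrp1 was -0.87 and Sostdc1 -1.09 with no doublet removal, and Sfrp1 -0.82 with no integration. Alternatives chosen after seeing the data were the control weighting within classes, with -0.38 for Sfrp1, -0.56 for Wif1 and -1.47 for Sostdc1 in the papilla and 1.19 for Wif1 in unnamed dermal cells, and leaving out the highest cell of each library, with -1.31 for Wif1 in mixed IFE basal cells. Genes past the fold, higher and lower, numbered 667 and 1550 over keratinocytes (212 and 496 at 2-fold, 1137 and 2373 at 20 UMIs, 340 and 836 at 200 UMIs) and 377 and 535 over dermal cells (79 and 130, 880 and 987, 111 and 206).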
